A study of Homo sapiens with 134 samples.

Results

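The circadian clock genes PER1, PER2, PER3, CRY1, CRY2, NR1D1, NR1D2, DBP, TEF and BHLHE40 were followed in cultured human bronchial epithelial cells, first over a day of mock treatment and then after radiation. All probes annotated to these 10 symbols were taken, which gave 12 of the 48701 probes on the array. Of these, 10 probes of 9 genes had a mean signal above the median of all probes and entered the tests with 24350 probes in all. The probe of PER3 (ILMN_1732519) and a second probe of PER2 (ILMN_1744733) lay below that limit and are given by value only.

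The cells were HBEC3KT, a bronchial epithelial line made to divide without limit by CDK4 and telomerase (hTERT), so every group carried both transgenes and the study rests on 1 line. Runs were done in 5 campaigns in 2008 and 2009, and each of 9 runs exposed cells to 1 radiation type: Fe ions at 0.5 or 1 Gy, Si ions at 0.5 or 1 Gy, or gamma-rays at 1 or 3 Gy (called x-ray in the sample labels, and given off by a caesium source according to the methods). Each run held a reference sample taken before irradiation and mock samples, not irradiated, taken at 1, 4, 12 and 24 h. Samples of both doses were taken at the same times, with 1 gap named below. Arrays that repeated a condition within a run were averaged, so that 134 arrays gave 9 reference, 36 mock and 71 irradiated samples. Run Fe 08A had no 0.5 Gy sample of 12 h among them, so its irradiated value at 12 h rests on 1 Gy alone. Runs are named by radiation type and campaign. Campaigns 08C (Fe ions and gamma-rays), 09A (Si ions and gamma-rays) and 09C (all radiation types) held more than 1 run. Changes shared within a campaign were not modelled, so the 9 runs may not be independent. The time of day at which cells were taken is not given in the sources used here.

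Values are log2 signals after normexp background correction with an offset of 50 and quantile normalization, and a difference of 1 on this scale is a doubling, though the offset understates the change of weak probes. Median raw signals of single arrays ranged from 45.8 to 116. All 6 basal epithelial marker genes that had a probe lay above the array median, and 5 of them lay above percentile 75. KRT5, a basal keratin, was the highest of these, at percentile 99.4. Above the median also lay 3 of 5 secretory or ciliated and 2 of 5 fibroblast marker genes. The same held for 2 of 3 leukocyte and 1 of 3 endothelial marker genes. In these other lists CD14, a leukocyte marker, alone reached percentile 75, at percentile 86.2.

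The mammalian clock is a loop of transcription and repression that runs in most cell types, airway epithelium included. The factors BMAL1 and CLOCK (or NPAS2) bind E-boxes and switch on the PER and CRY genes, whose proteins in turn hold BMAL1 and CLOCK back. NR1D1 and NR1D2 (REV-ERB alpha and beta) repress BMAL1 and compete with the ROR receptors, DBP and TEF activate genes through D-boxes, and BHLHE40 (DEC1) represses at E-boxes.

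The motifs of this loop were looked for in the RefSeq promoter table (GRCh38.p14), which held 14 windows for the 10 genes, each reaching from 250 bases before to 50 bases after a transcript start. The motifs were the E-box CACGTG, the related E-prime box CACGTT, the D-boxes TTATGTAA and TTACGTAA, the ROR/REV-ERB element TAGGTCA and the cyclic AMP element TGACGTCA, searched on both strands. An E-box or E-prime box was found in 9 of the 14 windows and in 8 of the 10 genes, against 12.2% of all 35116 windows and 14.5% of all 27305 genes. A D-box was found for PER2, PER3 and NR1D2, against 1.27% of all genes, and a ROR/REV-ERB element for CRY2 alone, against 2.29%. The cyclic AMP element was in none of the 14 windows, against 1.85% of all windows, and DBP had none of the motifs. A match is a run of letters and no evidence of binding, and this array holds no binding data. The windows printed here are those with a motif from genes that rose between 12 and 24 h of mock treatment (1 window for each gene), read from 250 bases before to 10 bases after the start, 5′ to 3′ on the gene's strand, with the matches on either strand in capitals.
PER1, chr17:8152395-8152654, minus strand: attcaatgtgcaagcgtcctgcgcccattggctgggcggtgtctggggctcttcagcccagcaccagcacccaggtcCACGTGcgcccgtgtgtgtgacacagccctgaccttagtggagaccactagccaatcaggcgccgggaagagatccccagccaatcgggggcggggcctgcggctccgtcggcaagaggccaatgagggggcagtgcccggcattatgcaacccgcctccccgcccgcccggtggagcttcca
PER2, chr2:238288601-238288860, minus strand: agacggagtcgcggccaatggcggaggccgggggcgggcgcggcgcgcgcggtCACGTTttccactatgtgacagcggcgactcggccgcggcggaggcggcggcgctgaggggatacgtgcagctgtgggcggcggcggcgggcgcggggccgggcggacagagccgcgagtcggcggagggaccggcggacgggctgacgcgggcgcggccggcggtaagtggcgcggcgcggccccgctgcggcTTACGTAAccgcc
CRY2, second window, chr11:45847225-45847484, plus strand: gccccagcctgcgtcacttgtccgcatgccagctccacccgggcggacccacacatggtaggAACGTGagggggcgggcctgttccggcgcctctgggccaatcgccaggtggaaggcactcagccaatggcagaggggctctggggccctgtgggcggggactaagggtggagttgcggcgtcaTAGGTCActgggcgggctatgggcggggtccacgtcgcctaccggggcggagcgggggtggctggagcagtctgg
NR1D2, second window, chr3:23945871-23946130, plus strand: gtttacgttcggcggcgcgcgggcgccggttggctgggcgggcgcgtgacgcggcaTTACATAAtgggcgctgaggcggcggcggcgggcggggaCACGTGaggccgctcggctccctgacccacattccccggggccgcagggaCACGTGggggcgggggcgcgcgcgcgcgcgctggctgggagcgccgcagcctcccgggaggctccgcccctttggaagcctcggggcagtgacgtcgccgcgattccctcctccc
TEF, first window, chr22:41367205-41367464, plus strand: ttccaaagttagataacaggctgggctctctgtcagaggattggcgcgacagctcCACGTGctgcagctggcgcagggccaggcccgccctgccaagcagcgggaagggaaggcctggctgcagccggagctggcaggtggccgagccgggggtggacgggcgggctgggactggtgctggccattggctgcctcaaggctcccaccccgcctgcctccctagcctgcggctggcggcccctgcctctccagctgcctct
The E-box of PER1 began at position -173 from the start. PER2 carried an E-prime box at -197 and a D-box across the start itself, at -3. NR1D2 had E-boxes at -155 and -105 and a D-box at -194, and both windows of TEF held an E-box, at -195 and -193.

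**Figure D1:**
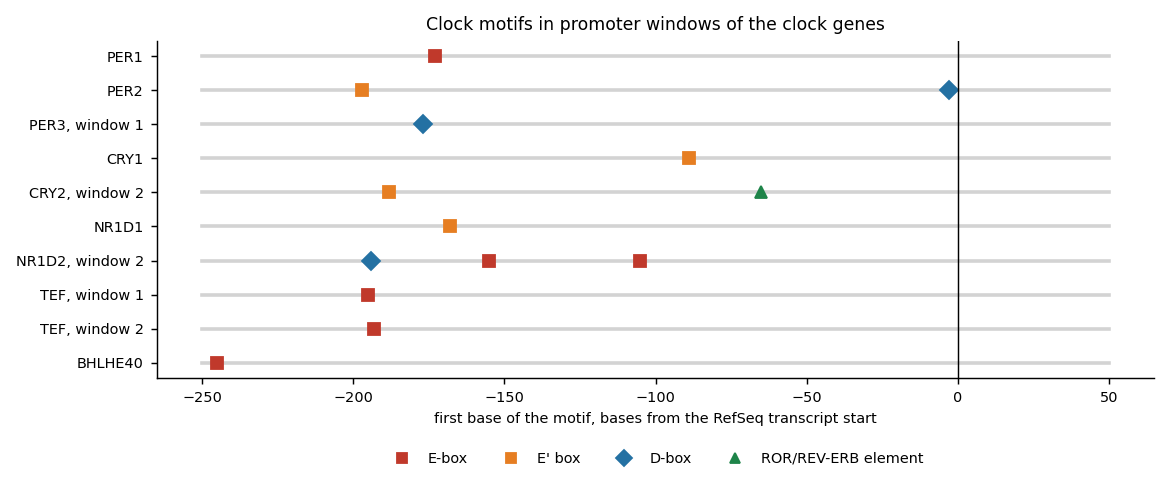
Position of clock motifs in the promoter windows that held one, with bases from the RefSeq transcript start on the x axis and 1 line for each window. E-box and E-prime (E' box) matches (squares) lay between -245 in BHLHE40 and -89 in CRY1, and the D-box of PER2 (diamond) lay at -3.

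The first question was how the clock genes moved in cells that were not irradiated. PER2, CRY2 and TEF fell to their lowest mean signal at 12 h. PER1 and DBP were low at both 4 and 12 h, with no called difference between these times. At 4 and 12 h PER1 had means of 6.36 and 6.47 and DBP of 6.36 and 6.45, near the limit for testing of 6.23. A further fall may not show at that level. PER1, PER2, CRY2, DBP, TEF and NR1D2 were higher at 24 h than at 12 h. In the limma fit over reference and mock samples, with run as a block, 8 of the 10 probes changed over the 5 times (adjusted p under 0.05, Benjamini-Hochberg over all probes), where 22.6% of all tested probes did. CRY1 (adjusted p = 0.141) and NR1D1 (adjusted p = 0.773) did not pass. Fewer cells and less RNA per cell cannot be told apart in such bulk samples.

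PER2, a core repressor of the loop, had the smallest p of the set over the course. Its signal in the 9 reference samples ran from 8.38 over a median of 8.54 to 9.65. In mock samples it ran from 8.45 over 9.74 to 9.96 at 1 h, and from 8.50 over 9.05 to 9.75 at 4 h. It then ran from 7.42 over 7.98 to 8.42 at 12 h, and from 9.23 over 9.53 to 10.1 at 24 h. The 12 h samples thus lay below every mock sample of 1, 4 and 24 h, while they overlapped the reference samples. From 12 to 24 h PER2 rose by 1.66 ± 0.18 (log2, SE, n = 9 runs, limma adjusted p = 8.79e-07), a 3.15-fold higher signal, in 9 of 9 runs. Here and below ± gives the SE of the limma fit, unless marked SD. That SE pools the spread over all groups of the fit and is moderated over probes, so it is not the SE of the printed runs alone. PER2 had fallen by 1.06 ± 0.18 from 4 to 12 h, also in 9 of 9 runs (limma adjusted p = 0.000218). The means of 1 h and 24 h, the highest of the course, differed by 0.09 ± 0.18 (limma adjusted p = 0.896). The second PER2 probe, which is annotated to another transcript and lay at percentile 29.7, had means between 6.02 and 6.18 at all times.

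TEF, a D-box activator, was also lowest at 12 h and highest at 24 h. It ran from 6.62 over 6.81 to 7.84 at 12 h, and from 7.48 over 7.99 to 9.08 at 24 h. The groups overlapped through the gamma-ray run 09C alone, whose 12 h mock sample had 7.84 while the other 8 runs stayed at or below 7.11. TEF rose by 1.20 ± 0.15 from 12 to 24 h (n = 9 runs; limma adjusted p = 1.45e-05), a 2.31-fold higher signal, and was higher at 24 h in 9 of 9 runs. It had fallen by 0.52 ± 0.15 from 4 to 12 h (limma adjusted p = 0.0345).

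DBP, the other D-box activator of the set, was low in most samples and high in a few. At 12 h it ran from 6.23 over 6.39 to 7.27, and at 24 h from 6.48 over 7.31 to 8.68. The 3 highest 24 h values belonged to runs Si 09A, gamma-ray 09C and Fe 09C, at 8.68, 8.57 and 8.48, and the other 6 runs stayed between 6.48 and 7.53. The rise from 12 to 24 h was 1.05 ± 0.21 (n = 9 runs; limma adjusted p = 0.00135) and was seen in 9 of 9 runs, from 0.236 to 2.20. The reference sample of run Fe 09C stood alone at 8.50, against 6.78 or less in the other 8 runs.

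CRY2, the partner of the PER proteins, ran from 6.93 over 7.29 to 7.51 at 12 h and from 7.53 over 7.89 to 8.44 at 24 h, without overlap. Its rise was 0.65 ± 0.09 (n = 9 runs; limma adjusted p = 6.63e-05), after a fall by 0.47 ± 0.09 from 4 to 12 h (limma adjusted p = 0.001). CRY1 did not share this order: its mean was highest at 4 h, at 8.50, and the change from 12 to 24 h was -0.18 ± 0.14 (limma adjusted p = 0.479). From 4 to 24 h CRY1 was lower by -0.40 ± 0.14 (limma adjusted p = 0.0354), but only in 6 of 9 runs, with a median of -0.153 and with the gamma-ray run 09C at 6.95 against 7.46 or more in the other runs. The call was lost without that run (-0.253; limma adjusted p = 0.138), without Fe 09C (-0.336; limma adjusted p = 0.138) and without Si 09A (-0.352; limma adjusted p = 0.123).

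PER1 ran from 6.24 over 6.35 to 6.49 at 4 h, the narrowest group of its course. That group lay just above the limit for testing of 6.23. At 24 h PER1 ran from 6.64 over 6.998 to 7.75. Every 24 h sample lay above every 4 h sample. PER1 fell by 0.46 ± 0.11 from 1 to 4 h, in 9 of 9 runs (limma adjusted p = 0.00937), and rose by 0.63 ± 0.11 from 12 to 24 h, in 8 of 9 runs (limma adjusted p = 0.000783). PER3 stayed near background, with means from 6.15 at 12 h to 6.30 at 24 h.

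NR1D2 was read by 2 probes that moved alike. ILMN_1698668 fell by 0.53 ± 0.13 from 1 to 4 h and rose by 0.64 ± 0.13 from 12 to 24 h (limma adjusted p = 0.00599 and 0.00135). ILMN_1704471 fell by 0.40 ± 0.11 and rose by 0.56 ± 0.11 over the same steps (limma adjusted p = 0.0149 and 0.00107). Each probe was higher at 24 h than at 12 h in 9 of 9 runs. NR1D1, its close relative, lay between 6.14 and 6.54 in all 45 reference and mock samples, and its largest step between successive times was 0.03 ± 0.04.

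BHLHE40 gave the strongest signal of the set, at percentile 98.7. It ran from 11.7 over 12.8 to 13.0 at 1 h and from 11.8 over 12.2 to 12.6 at 4 h, so that the groups overlapped. The fall from 1 to 4 h was 0.47 ± 0.12 (n = 9 runs; limma adjusted p = 0.0131) and was seen in 7 of 9 runs. From 12 to 24 h BHLHE40 changed by 0.21 ± 0.12 (limma adjusted p = 0.32).

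**Figure D2:**
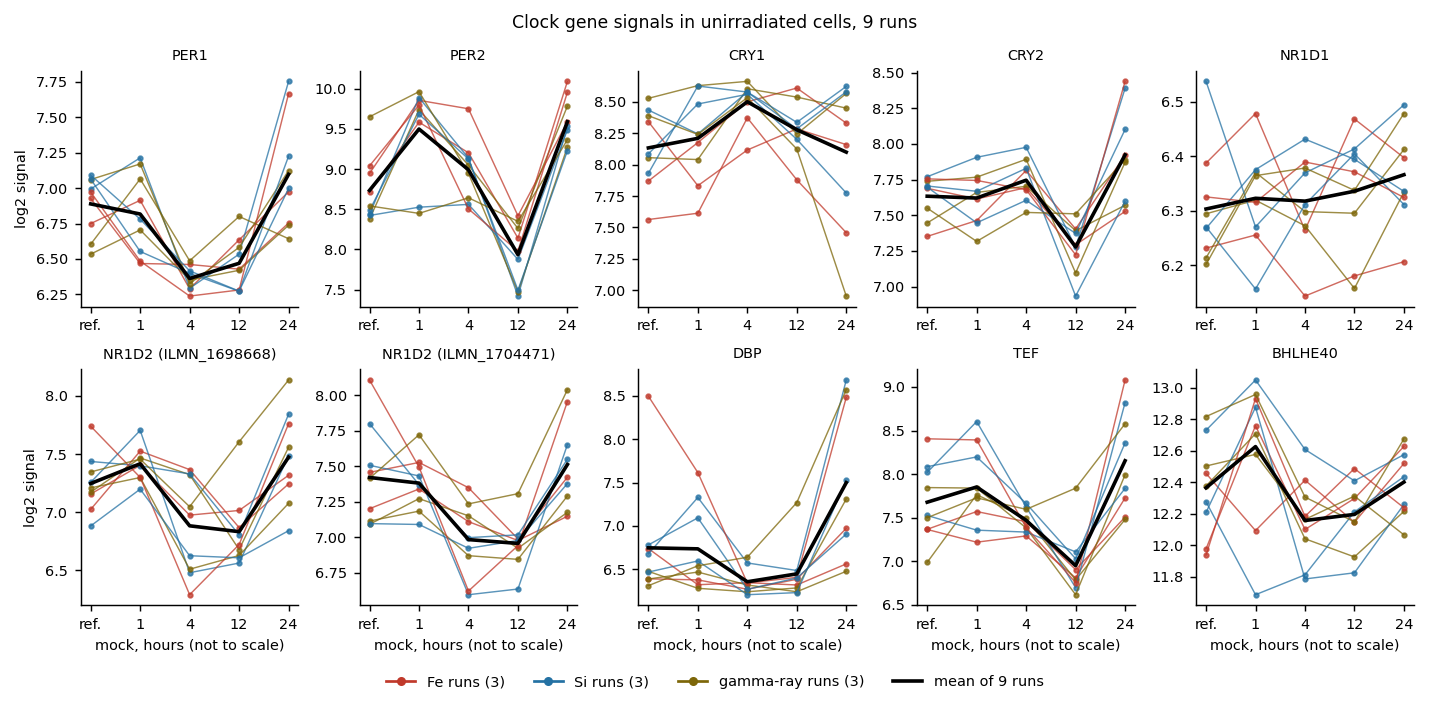
Log2 signal (y axis) of the 10 tested clock gene probes in the reference sample and in mock samples at 1, 4, 12 and 24 h (x axis, not to scale), with a thin line for each of 9 runs, coloured by the radiation type of the run, and a thick line for their mean. PER2, CRY2 and TEF have their lowest mean at 12 h, and PER2 lies between 9.23 and 10.1 in all 9 runs at 24 h.

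Counted by step, 4 of the 10 probes fell from 1 to 4 h (background 6.5% of all tested probes called), 3 fell from 4 to 12 h (5.86%) and 7 rose from 12 to 24 h (13%), with no probe called in the opposite direction. The median change of the 10 probes from 12 to 24 h was 0.634, beside 0.002 over all tested probes. Against the reference, only PER2 was higher at 1 h, by 0.76 ± 0.18 (limma adjusted p = 0.0322; 0.546% of all probes called). At 4 h PER1 and NR1D2 (ILMN_1704471) were lower, by -0.53 ± 0.11 and -0.44 ± 0.11 (limma adjusted p = 0.00137 and 0.004; 11.7% called). At 12 h 6 probes of PER1, PER2, CRY2, NR1D2 and TEF were lower, from -0.36 for CRY2 to -0.80 for PER2 (5.41% called). At 24 h only PER2 was higher, by 0.86 ± 0.18 (limma adjusted p = 0.0138; 0.571% called), although TEF lay above its own reference in 9 of 9 runs (0.48 ± 0.15, limma adjusted p = 0.151). Scaling arrays to a common median in place of quantile normalization left no clock probe called against the reference at 1, 12 or 24 h, none of the falls from 1 to 4 h, 1 of the 3 from 4 to 12 h and 5 of the 7 rises from 12 to 24 h. The fit without the run block also left no call against the reference at 1, 12 or 24 h. Shares of all probes called are given for the main fit alone, so counts under alternatives describe the clock probes only. In the authors' processed values, where no offset was added here, the rises from 12 to 24 h were larger, at 2.15 for DBP, 2.05 for TEF and 1.496 for PER1, as were the falls from 1 to 4 h of PER1 (-1.18) and NR1D2 (-1.17 for ILMN_1698668 and -0.81 for ILMN_1704471) and those against the reference of PER1 at 4 h (-1.385) and of TEF at 12 h (-1.37), and each passed the test. With single runs left out, the 12 h count fell to 2 without Si 09C and to 3 without Fe 08C, Fe 09C or the gamma-ray run 09A, the PER2 call at 1 h was lost in 6 cases (Fe 08A, Fe 08C, Fe 09C, Si 09A, Si 09C or the gamma-ray run 08C), and that at 24 h without Fe 08A, Si 09A or the gamma-ray run 08C.

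The same steps were then read in the irradiated samples, which the mock fit had not used but which came from the same 9 runs. With the mean of both doses as 1 sample for each run and time, 4 probes fell from 1 to 4 h (7.41% of all tested probes called), 3 fell from 4 to 12 h (7.42%) and 6 rose from 12 to 24 h (10.3%). PER2 rose by 1.39 ± 0.17 in irradiated cells from 12 to 24 h (n = 9 runs; limma adjusted p = 0.000156), in 9 of 9 runs. TEF rose by 1.00 ± 0.15, DBP by 0.94 ± 0.18 and CRY2 by 0.58 ± 0.10 (limma adjusted p = 0.000584, 0.00243 and 0.00127), each in 9 of 9 runs. The rises of PER1 and NR1D2 (ILMN_1698668) were 0.36 ± 0.11 and 0.35 ± 0.11 (limma adjusted p = 0.0313 and 0.0354), beside 0.63 and 0.64 in mock cells; these pairs of values were not tested against each other. The second NR1D2 probe, ILMN_1704471, was at 0.25 ± 0.09 (limma adjusted p = 0.0862).

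**Figure D3:**
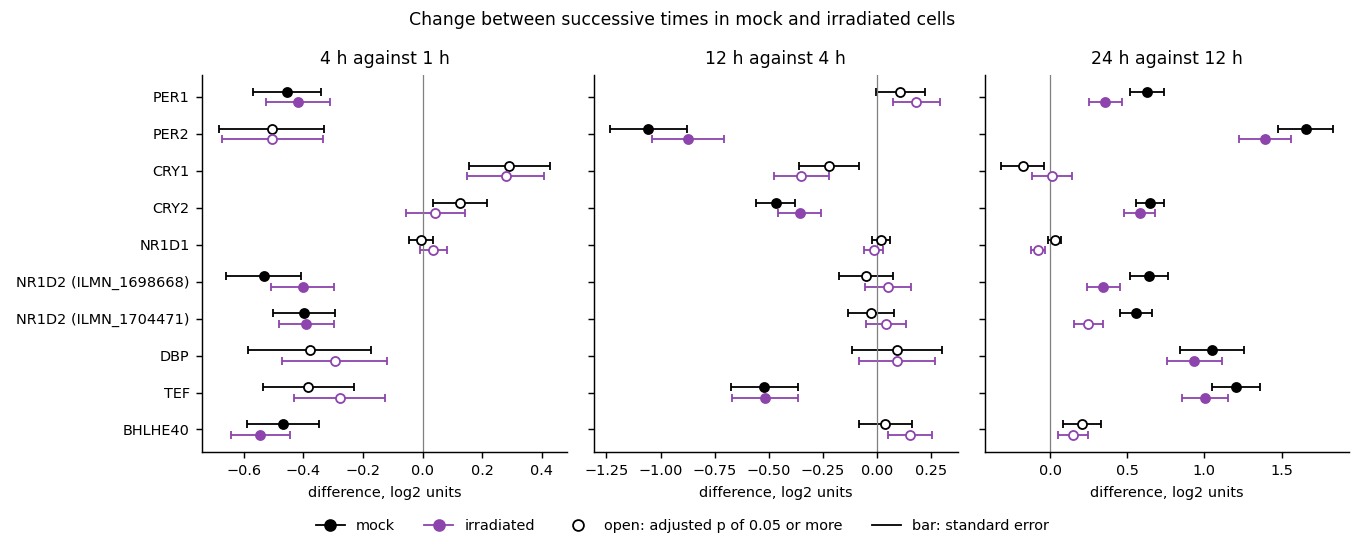
Difference between successive times (x axis, log2 units) for the 10 tested clock gene probes in mock samples (black) and in irradiated samples (purple). Points give the estimate over 9 runs, filled where the adjusted p was under 0.05, and bars the pooled standard error of the limma fit. From 12 to 24 h PER2 rose by 1.66 in mock and by 1.39 in irradiated cells, and no probe was called in opposite directions in the 2 sets.

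The mock courses of the 3 radiation arms were compared next, since each arm had its own mock samples. No clock probe differed in course between arms (0% of all probes called), and the smallest unadjusted p among the 10 was 0.114, for PER1. Likeness was ranked among tested probes of other genes that carry a symbol, so probes without a symbol are left out. The probe most like PER2 among these over the 45 reference and mock samples, after each run was centred, was TEF (Pearson's r = 0.852). It was followed by CRY2 (0.792), TTC32 (0.78), NOTCH2 (0.76) and CTNNBIP1 (0.754). TEF was most like PER2, then KCNJ5 (0.83), APOBEC3C (0.828), PDCD4 (0.824) and SLC1A5 (0.824). PER1 was most like ZNF385A (0.837), DYRK1B (0.834), ORAI3 (0.815), PAM (0.81) and H1-10 (0.797). These values describe samples that share runs and times and carry no test.

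Of 20 other clock genes, 18 had a probe and 16 a tested one, with 23 tested probes, of which 9 changed over the mock course, where 22.6% of all tested probes did: single probes of BMAL1, BMAL2, NPAS2, RORA, NFIL3, CSNK1D, TIMELESS, TIPIN and NAMPT. BMAL1 (ILMN_1731540), the activator of the loop, rose in the step from 4 to 12 h, in which PER2 fell. It was 0.47 ± 0.11 higher at 12 h than at 4 h (limma adjusted p = 0.00878), in 8 of 9 runs. From 1 to 4 h both means fell, that of BMAL1 from 8.42 to 8.21 and that of PER2 from 9.50 to 8.99. From 12 to 24 h BMAL1 changed by -0.27 ± 0.11 (limma adjusted p = 0.117). A second BMAL1 probe did not pass the course test (adjusted p = 0.447). Over the 45 samples PER2 had r = -0.372 with the first BMAL1 probe and -0.084 with the second. RORA (ILMN_1743536), an activator of BMAL1, was lower than the reference at 4 h by -0.30 ± 0.08 and at 12 h by -0.32 ± 0.08 (limma adjusted p = 0.0083 and 0.0149), each in 8 of 9 runs. NFIL3, which opposes DBP and TEF at D-boxes, was 0.83 ± 0.18 higher at 24 h than at 1 h, with a mean of 9.39 against 8.56 (limma adjusted p = 0.00541). It ran from 8.312 over 8.484 to 8.979 at 1 h and from 8.773 over 8.975 to 10.242 at 24 h, so that the groups overlapped. The reference mean of NFIL3 was 8.872, above that of 1 h, and none of the 23 tested probes was called against the reference at 24 h. TIMELESS and TIPIN, partners at the replication fork, fell from 12 to 24 h by 0.64 ± 0.15 and 0.61 ± 0.16 (limma adjusted p = 0.00487 and 0.00821), and TIPIN and DBP had r = -0.862 over the 45 samples. CLOCK did not pass the course test (adjusted p = 0.83).

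**Figure D4:**
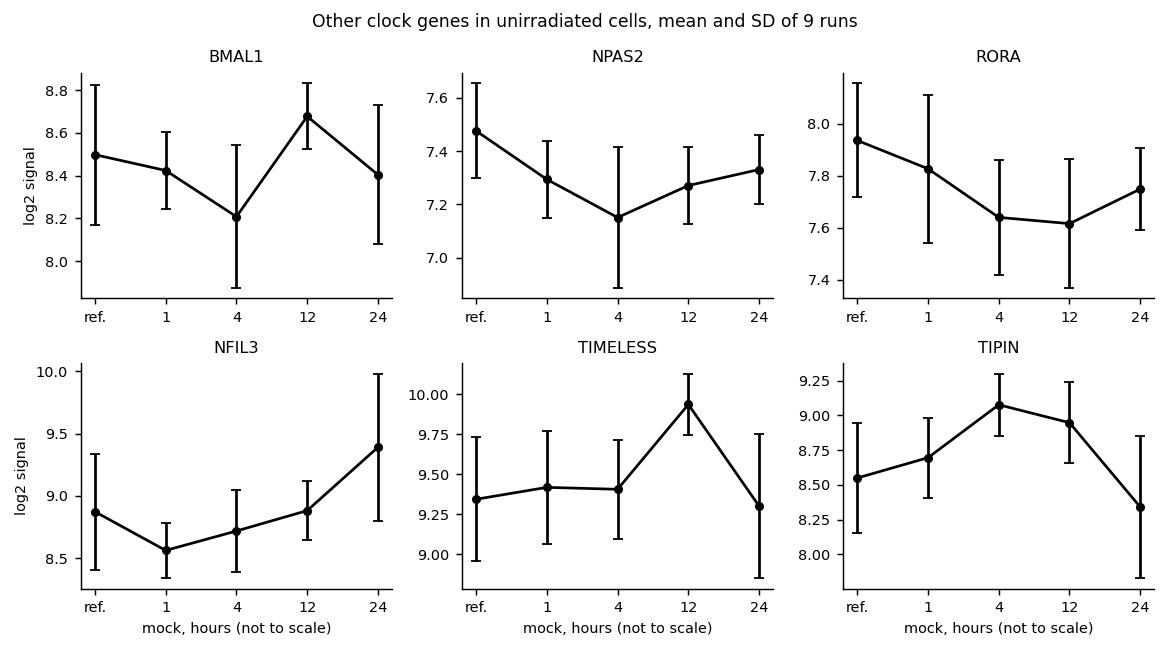
Mean and SD over 9 runs of the log2 signal (y axis) of 6 other clock genes in the reference sample and in mock samples at 1, 4, 12 and 24 h (x axis, not to scale). BMAL1 has its highest mean, 8.68, at 12 h, where TIMELESS also peaks at 9.94, and NFIL3 is highest at 24 h.

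Other gene lists also held calls at the step from 12 to 24 h, where 13% of all tested probes were called. There 7 of 13 tested probes of glucocorticoid-responsive genes rose and none fell, with a median of 0.465. The list contains PER1 itself, and its largest rise was that of TSC22D3, at 2.27. Among immediate early genes 7 of 17 probes rose, with a median of 0.372, among them FOS at 0.74 and ATF3 at 1.19. Among cyclic AMP targets 1 of 9 rose, which was FOS. Of 17 proliferation probes 5 fell, those of MCM2, MCM3, MCM5 and PCNA, and the list had a median of -0.473. Their part in the course of the clock genes was not tested.

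The second question was whether radiation changed the clock genes, read as the irradiated minus the mock signal of the same run and time, averaged over both doses. No clock probe was called at 1, 4, 12 or 24 h over the 9 runs, where 0%, 0.0534%, 0.0945% and 0.0123% of all tested probes were. At 24 h 5 of the 10 probes had an unadjusted p under 0.05, all lower after radiation, where 1379 of all 24350 probes had such a p, and the median of the 10 was -0.122 beside -0.001 over all probes. The probes share the mock sample of their run, so they are not separate readings.

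At 24 h NR1D2 (ILMN_1704471) came nearest to a call, with responses from -0.645 over -0.135 to 0.014 in the 9 runs. It was lower than mock in 8 of 9 runs, by -0.22 ± 0.05 (limma adjusted p = 0.179). PER2 was at -0.23 ± 0.09, TEF at -0.17 ± 0.05 and PER1 at -0.15 ± 0.07 (limma adjusted p = 0.75, 0.549 and 0.836). For PER1 the runs lay between -0.351 and -0.137, apart from the gamma-ray run 09C at 0.542. At 12 h CRY1 was lower than mock in 9 of 9 runs, from -0.428 over -0.169 to -0.031, with a mean of -0.19 ± 0.05 (limma adjusted p = 0.0892). With the higher dose alone CRY1 was called at 12 h, at -0.265 (limma adjusted p = 0.0282). Of 22 alternatives the other 21 left CRY1 at 12 h uncalled, and its value ran from -0.265 to -0.046 over all of them.

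By radiation type, none of the 10 probes was called over the 4 times after Fe ions (0.00821% of all probes called), Si ions (0.0657%) or gamma-rays (0.0123%). After Fe ions at 24 h TEF lay at -0.557, -0.424 and -0.084 in the 3 runs, with a mean of -0.36 ± 0.09 (limma adjusted p = 0.321). That SE is pooled over radiation types and times and is not the SE of these 3 runs. PER2 after Fe ions at 24 h lay at -0.894, -0.341 and -0.142. After Si ions at 24 h the means of TEF and PER2 were 0.04 ± 0.09 and 0.01 ± 0.16. After gamma-rays TEF was low at 1 h, at -0.489, -0.328 and -0.303 (mean -0.37 ± 0.09; limma adjusted p over the array of 1). The test of the difference between radiation types called no clock probe (0% of all probes), and its smallest unadjusted p among the 10 was 0.00798, for TEF (adjusted p = 0.764).

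**Figure D5:**
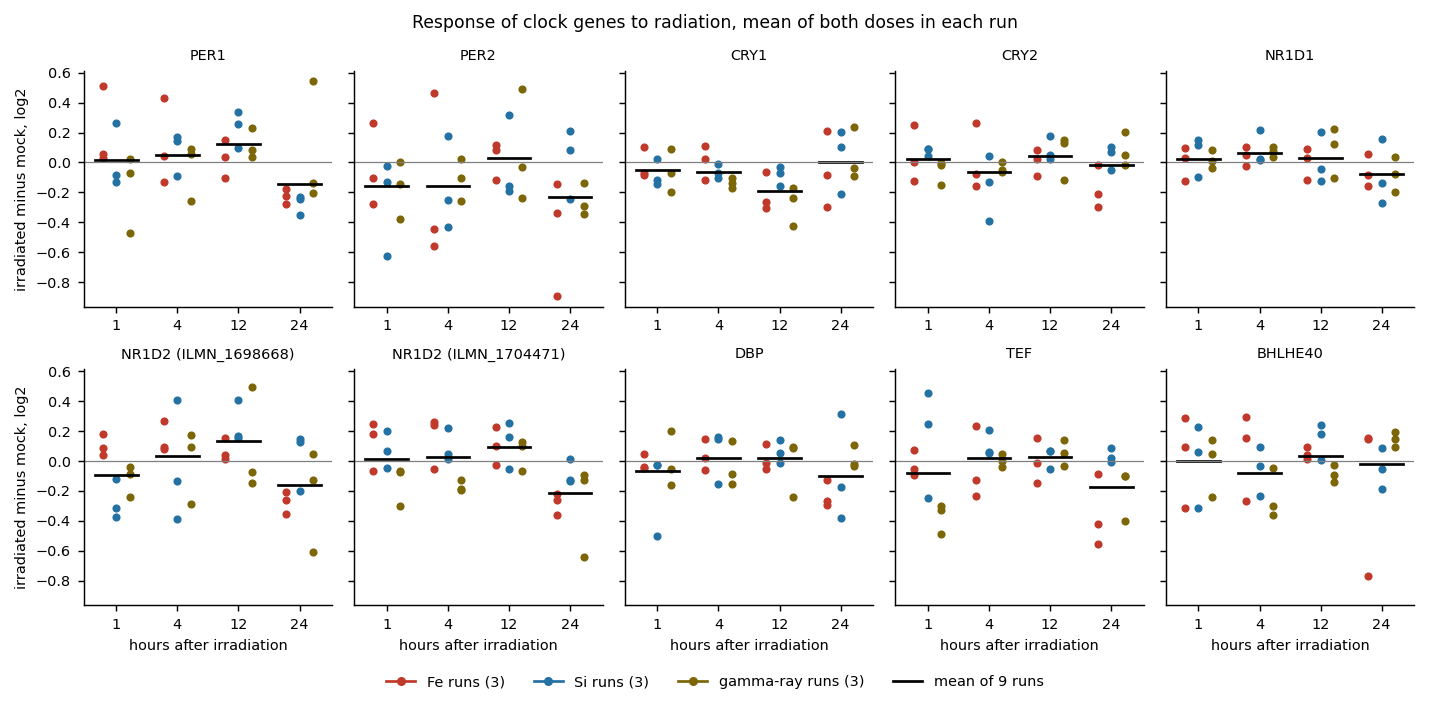
Irradiated minus mock log2 signal (y axis, mean of both doses) of the 10 tested clock gene probes at 1, 4, 12 and 24 h (x axis), with a point for each run, coloured by radiation type, and a black line for the mean of 9 runs. CRY1 at 12 h lies below 0 in all 9 runs, and the mean of 9 runs at 24 h is -0.234 for PER2.

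The higher and the lower dose of a run were compared last. No clock probe was called for Fe ions (0% of all probes), Si ions (0.678%) or gamma-rays (0.821%). BHLHE40 after Fe ions came nearest, with an unadjusted p of 0.000985 (limma adjusted p = 0.252). Its higher-dose minus lower-dose signal at 24 h was -0.777 ± 0.839 (SD, n = 3 runs) and ran from -1.73 to -0.152. These p-values belong to the test over the 4 times together. Without run Fe 09C that test called BHLHE40 (limma adjusted p = 0.0142), and without run Si 09A it called CRY2 after Si ions (limma adjusted p = 0.013).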

How the data were processed

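RNA of HBEC3KT cells was read on Illumina HumanWG-6 V2 BeadChips. The authors deposited bead-summary intensity values without background correction, and a table of processed log2 values that was used as an alternative; per the study's methods these were background-subtracted and quantile-normalized. Probes were named by the platform annotation, with symbols updated through gene identifiers. Intensities were corrected with normexp (offset 50), quantile-normalized and put on the log2 scale, and repeat arrays of a condition within a run were averaged. Tests used probes whose mean exceeded 6.23 (the median probe) and were run with limma 3.58.1 in R 4.3.3. The mock course was fitted on 45 samples with run as a fixed block. Runs pair the samples because the design gives each run its own reference and mock samples. Responses and dose differences were formed within runs. Calls had a Benjamini-Hochberg adjusted p under 0.05 over 24350 probes. The labels do not say that samples of a run came from separate cultures. In the mock course run levels are taken out, so p-values measure how changes over time varied between runs, with 32 residual degrees of freedom. Response p-values measure how runs of a radiation type varied, pooled over types and times, with 24 residual degrees of freedom. The times of a run were treated as separate values, and the number of runs limits both fits. The members and gene lists were chosen with earlier results of these data known. All probes of the members are named, and other clock genes where they passed a test. Also named are the 5 tested probes of other genes with a symbol that were most like each of the 3 members with the smallest course p. Scripts were tested on simulated data. No background correction, the filter at percentile 75, the omission of the 12 h mock sample of the gamma-ray run 09C, the steps in irradiated samples and the pairs of times that are not successive, also with single runs left out, were chosen after seeing the data. Other alternatives covered scaling, the authors' values, filter, variance model, blocks, doses, control and left-out runs.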

Additional observations from a re-analysis of the deposited data

Results flagged for a closer look

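A run was singled out where its distance from the nearest other run, as a share of the range of all 9 runs, exceeded Dixon's limit. This held in 9 of 80 groups of clock probe values. The limit flags about 1 in 20 groups of separate values by chance. These groups share reference and mock samples, so the count cannot be set against that rate. Against the reference, PER2 in the gamma-ray run 09A was lowest at 12 h (-2.179, next run -1.06) and at 24 h (-0.376, next run 0.644), and that run had the highest PER2 reference signal, 9.65. CRY1 in the gamma-ray run 09C was lowest at 24 h (-1.435, next run -0.311). DBP in run Fe 09C was lowest at 4 h (-2.153, next run -0.512) and at 12 h (-2.089, next run -0.42), and both values rest on the reference sample of that run, at 8.50. Among responses, PER1 in the gamma-ray run 09C was highest at 24 h (0.542, next run -0.137). PER2 in run Fe 08A was lowest at 24 h (-0.894, next run -0.343), DBP in the gamma-ray run 09C was lowest at 12 h (-0.241, next run -0.05), and BHLHE40 in run Fe 08C was lowest at 24 h (-0.77, next run -0.189).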

How the results depend on the processing

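The 7 rises from 12 to 24 h were kept in number by every left-out run (7 to 7), and 5 were called after scaling to a common median. Median scaling gave 0 calls against the reference at 1, 12 and 24 h and 1 at 4 h, 0 from 1 to 4 h and 1 from 4 to 12 h. Without the replicate block, that is without pairing by run, there were 0 calls against the reference at 1, 12 and 24 h and 2 from 1 to 4 h. No filter gave 0 calls at 1 h, and the chip as a random block 2 at 24 h. Left-out runs gave 0 to 1 calls at 1 h, 2 to 4 at 4 h, 2 to 6 at 12 h and 0 to 2 at 24 h against the reference, 2 to 5 from 1 to 4 h, and 0 to 1 for the dose differences of Fe and of Si ions. Leaving out campaign 09C gave 0 calls at 1 h, 1 at 4 h and 0 at 24 h against the reference, and 2 from 1 to 4 h. The higher dose alone gave 1 response call at 12 h. With the reference as control, which puts the course itself into the response, there were 2 calls at 4 h, 2 at 12 h, 2 for Fe and 1 for Si ions. Shares of all probes called are given for the main fit alone, so the counts in this section describe the clock probes and not the array. Of 451 course values under alternatives 378 kept their call, 73 lost it and 0 reversed. Of 434 response values 34 reversed. With the reference as control at 12 h these were PER1 -0.295, NR1D2 -0.279 and -0.373, TEF -0.702, DBP -0.282, PER2 -0.77, BHLHE40 -0.133 and CRY2 -0.31, and at 24 h PER1 0.063, NR1D2 0.067, TEF 0.302, DBP 0.653, PER2 0.621, CRY1 -0.032, BHLHE40 0.016 and CRY2 0.271. The chip block gave DBP -0.004 and PER2 -0.004 at 12 h and CRY1 -0.024 at 24 h. The higher dose gave DBP -0.004 at 12 h and CRY1 -0.106 at 24 h, the lower dose CRY2 -0.014 at 12 h and BHLHE40 0.134 at 24 h, and the authors' values CRY1 -0.011 at 24 h. Left-out runs turned the sign of PER2 at 12 h (-0.04 and -0.025) and of values near 0: NR1D1 at 12 h ranged from -0.001 to 0.062, and at 24 h CRY1 from -0.043 to 0.042, BHLHE40 from -0.072 to 0.081 and CRY2 from -0.045 to 0.002. The cause was not tested. The neqc correction and the filter on detection p were not run, since the table used here holds no detection p. Weak probes near background, such as PER3 and NR1D1, and also PER1 and DBP at 4 and 12 h, limit what a small difference can show.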
